A study of Mus musculus with 11 samples.

Results

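The genes described here encode the machinery of mitosis: the kinases and cyclins that start it, the spindle checkpoint, the kinetochore, the mitotic kinesins and the proteins that end it by cytokinesis. They were chosen as a list of 45 gene symbols, each read from the probe set that names that symbol alone, with the highest mean over 11 arrays where a gene had several. Of the 45, 44 were measured among 19938 genes in all, and Ccnb1 was not analysed here. Expression was measured on Affymetrix arrays in mouse stomach, with 1 array per sample and with deposited log2 values. The pChePS_GC group (n = 4) was gastric cancer tissue of mice that carried Pdx-1-Cre, a floxed and a wild-type allele of Cdh1 (Cdh1F/+), and floxed alleles of Trp53 (Trp53F/F) and Smad4 (Smad4F/F). The pCP_GC group (n = 3) was gastric cancer tissue of mice with Pdx-1-Cre, Cdh1F/F and Trp53F/F. The NGE group (n = 4) was normal gastric epithelium of mice negative for the Cre. Both tumour groups are labelled as diffuse-type; they share the Cre, the Trp53 alleles and at least 1 floxed Cdh1 allele, and differ in the Cdh1 and Smad4 alleles. In mice the Pdx1 promoter is active in the distal stomach, duodenum and pancreas, so recombination is limited to cells of that lineage. No age is given in the labels, nor whether each sample is a different mouse, so the p-values cover the spread among the arrays at hand, and that spread may be technical.

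As background, a cell enters mitosis when Cdk1 bound to A- and B-type cyclins phosphorylates its targets. Kinetochores then form on centromeres that carry the histone variant CENP-A, and the Ndc80 complex attaches them to spindle microtubules. Until every kinetochore is attached, the spindle checkpoint holds back Cdc20 and the anaphase-promoting complex, a ubiquitin ligase whose activity frees separase to cut cohesin. Most of these genes are transcribed in G2 and mitosis, and in the normal stomach the dividing cells are mainly those of the isthmus of the gastric gland.

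The groups differed in more than these genes. Over all 11 arrays the median log2 signal lay between 7.63 and 7.81, and pairs of arrays of a group correlated across genes at r = 0.962 to 0.978 in pChePS_GC, 0.972 to 0.988 in pCP_GC and 0.990 to 0.994 in NGE. Cdh1 (E-cadherin) read 8.73 to 11.07 in pChePS_GC and 10.52 to 12.02 in pCP_GC, against 12.93 to 13.02 in NGE. Smad4 read 10.17 to 11.02 in pChePS_GC and 11.41 to 11.49 in pCP_GC, against 11.05 to 11.16 in NGE. The labelled tissue was checked with 11 markers of gastric epithelium, whose mean log2 level per array was 9.89 to 11.72 in pChePS_GC and 11.26 to 12.48 in pCP_GC, against 13.51 to 13.66 in NGE. Of the 11, 7 were lower and 1 higher in pChePS_GC, and 4 lower and 1 higher in pCP_GC. Over all genes, 23.4% were lower and 18.7% higher in pChePS_GC, and 31.8% lower and 20.0% higher in pCP_GC. The count of 4 in pCP_GC is thus near the share over all genes. Cdh1 is among these 11 and was lower in both tumour groups, where it is floxed, so for it allele and tissue cannot be told apart. The epithelial marker with the highest change was Epcam, at 0.55 in pChePS_GC and 0.76 in pCP_GC on the log2 scale. All 6 fibroblast, 6 macrophage, 5 endothelial and 4 smooth muscle markers were higher in both tumour groups, as were 1 of 4 B and plasma cell markers and none of 5 T cell markers. The mean fibroblast marker level was 10.93 to 11.99 in pChePS_GC and 11.06 to 12.06 in pCP_GC, against 7.80 to 8.09 in NGE. The part of this difference in cell types in the results below was not tested. In bulk samples such as these, fewer cells of a type and less RNA per cell cannot be told apart. Xist, which is transcribed from the inactive X, read at most 6.02 on every tumour array and at least 11.54 on every NGE array, so the sex of the mice, as this gene reads it, and the group cannot be told apart. The sex-linked gene Eif2s3y read at least 8.08 on every tumour array and at most 5.19 on every NGE array. Every comparison with NGE is read with that limit, and Kif4 itself lies on the X chromosome.

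Nearly all of the mitotic genes rose in both kinds of tumour, and the spindle checkpoint and cytokinesis genes had the largest group medians. In pChePS_GC against NGE, 41 of 44 passed as higher and 0 as lower at an adjusted p under 0.05 (limma, Benjamini-Hochberg adjustment over 19938 genes). Over all genes, 18.7% passed as higher and 23.4% as lower. In pCP_GC against NGE, 44 of 44 passed as higher and 0 as lower, where 20.0% of all genes passed as higher and 31.8% as lower. These comparisons share the 4 NGE arrays, so the counts are not independent of each other. The median change of the 44 genes was 1.24 on the log2 scale in pChePS_GC and 1.54 in pCP_GC, while the median over all genes was -0.10 and -0.12. At least 2-fold rises that passed were found for 30 of the 44 in pChePS_GC (6.98% of all genes) and 39 in pCP_GC (8.13%). All arrays of the tumour group lay above all NGE arrays for 40 of 44 genes in pChePS_GC (17.7% of all genes) and 44 of 44 in pCP_GC (24.0%). The 3 that did not pass in pChePS_GC were Espl1, Spc24 and Spc25. Dim probe sets were judged against 1194 odorant and pheromone receptor genes, a family transcribed mainly in sensory neurons, of which 95% had a mean below 7.24 in NGE, 6.99 in pChePS_GC and 6.86 in pCP_GC. The NGE means of Cdc25c, Ttk, Kif20b, Kif4 and Hmmr lay below that level, and no gene of the list had a tumour mean below its group's level. Changes of such genes are given below as at least so large, with each NGE reading under the level set to it. Their p-values and calls are those of the measured values. With these 5 genes at that bound, the median change of the 44 was 1.15 in pChePS_GC and 1.53 in pCP_GC, and 29 and 39 rose at least 2-fold.

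**Figure D1:**
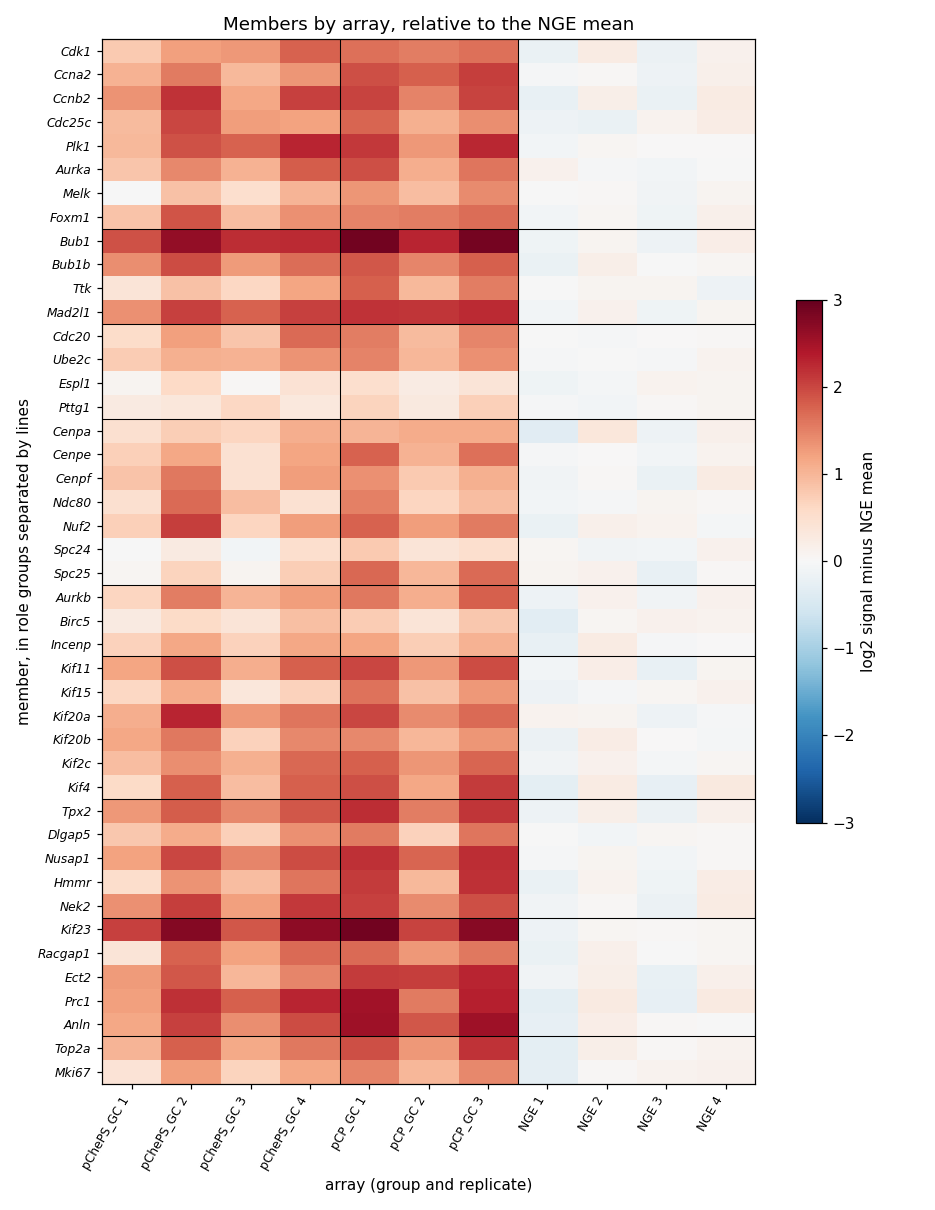
Log2 signal of the 44 measured genes on each of the 11 arrays, minus the mean of the 4 NGE arrays, in colour from -3 to 3, with lines between role groups and between sample groups. Kif23 and Bub1 are darkest, Espl1, Pttg1, Spc24 and Birc5 are palest, and within their groups pChePS_GC array 1 is palest in 28 rows and pCP_GC array 2 in 42.

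The promoters of these genes were examined for what they share in sequence, since many genes of G2 and mitosis are known to carry a cell cycle genes homology region (CHR), which the MuvB complex binds, and CCAAT boxes, which NF-Y binds. RefSeq promoter windows (GRCm38.p6, 250 bases before to 50 after the transcript start) were at hand for 35 of the 44 genes; Ccna2, Cdc25c, Foxm1, Spc24, Aurkb, Incenp, Kif20a, Tpx2 and Dlgap5 had none here. The CHR letters TTTGAA, on either strand, stood in 26 of the 35 windows (74.3%), against 20.2% of the 27025 genes with a window. Within 60 bases of the start they stood in 24 of 35 (68.6%), against 6.36% of all genes. The letters CCAAT on either strand stood in 24 of 35 (68.6%), against 41.1% of all genes, and both motifs stood in 21 of 35 (60%), against 7.97%. The E2F letters TTCCCGC, with the variants TTGGCGC and also TTCGCGC, on either strand, were in 5 of 35 (14.3%), against 9.2% of all genes. Among 20 DNA replication genes with a window, 14 (70.0%) held the E2F letters and 3 (15%) the CHR letters. The CCAAT letters stood in 14 of those 20 (70.0%), a share near that of the mitotic genes. A match describes the letters of a window and is neither a bound site nor a cause of any change.

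The stretches below run from 120 bases before to 30 bases after the start, 5′ to 3′ on the gene's strand, with CHR and CCAAT letters in capitals (ATTGG is CCAAT on the other strand). They show genes with large changes, Kif23 (chr9:61946770-61946919, minus strand), Bub1 (chr2:127831830-127831979, minus strand) and Mad2l1 (chr6:66535101-66535250, plus strand), and the Cdc20 promoter (chr4:118437314-118437463, minus strand), which holds both motifs. They are set beside genes with small changes or no call in pChePS_GC, namely Espl1 (chr15:102296173-102296322, plus strand), Pttg1 (chr11:43425952-43426101, minus strand) and Spc25 (chr2:69206184-69206333, minus strand).
Kif23: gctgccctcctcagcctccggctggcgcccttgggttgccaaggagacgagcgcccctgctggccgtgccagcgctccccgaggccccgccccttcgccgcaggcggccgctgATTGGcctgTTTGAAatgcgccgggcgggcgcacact
Bub1: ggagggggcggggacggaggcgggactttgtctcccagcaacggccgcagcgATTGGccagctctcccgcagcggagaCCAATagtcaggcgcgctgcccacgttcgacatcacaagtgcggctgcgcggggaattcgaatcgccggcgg
Mad2l1: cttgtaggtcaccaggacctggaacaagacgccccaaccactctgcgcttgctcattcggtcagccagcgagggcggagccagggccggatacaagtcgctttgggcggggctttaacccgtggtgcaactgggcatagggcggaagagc
Cdc20: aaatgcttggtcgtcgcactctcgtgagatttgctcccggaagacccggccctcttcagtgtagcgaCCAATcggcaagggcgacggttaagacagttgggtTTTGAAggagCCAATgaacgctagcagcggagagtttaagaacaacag
Espl1: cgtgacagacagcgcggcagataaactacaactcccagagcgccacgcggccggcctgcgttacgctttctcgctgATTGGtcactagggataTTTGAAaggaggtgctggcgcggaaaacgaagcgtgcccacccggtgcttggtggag
Pttg1: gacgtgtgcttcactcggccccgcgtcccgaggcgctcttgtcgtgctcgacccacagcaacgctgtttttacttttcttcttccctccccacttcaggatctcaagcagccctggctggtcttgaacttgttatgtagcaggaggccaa
Spc25: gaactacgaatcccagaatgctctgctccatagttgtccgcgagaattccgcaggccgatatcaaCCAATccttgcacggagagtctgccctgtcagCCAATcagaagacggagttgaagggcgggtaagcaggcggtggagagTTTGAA

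Kif23 and Espl1 lie near opposite ends of the range of changes, and both windows carry a CHR and a CCAAT box close to the start. Bub1 carries 2 CCAAT boxes and no TTTGAA letters, and the Mad2l1 and Pttg1 stretches carry neither. Only TTTGAA was searched for the CHR, so a window counted as without the letters may still hold another form of it. The Bub1 and Pttg1 stretches hold the near matches ttcgaa and cttgaa, which were not counted. The 26 genes with CHR letters had a median log2 change of 1.27 in pChePS_GC and 1.58 in pCP_GC against NGE. The 9 genes with a window but without the letters had medians of 1.18 and 1.53. The spread was wide in both sets, with changes in pChePS_GC from 0.29 to 2.34 with the letters and from 0.39 to 2.25 without them.

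All 8 measured kinases, cyclins and regulators of mitotic entry rose in both tumour groups. Their median log2 change was 1.28 in pChePS_GC and 1.59 in pCP_GC (1.26 and 1.59 with Cdc25c at its bound). Values per array are given below in the order of the replicate numbers. Plk1, the polo-like kinase that acts from mitotic entry to cytokinesis, read 10.18, 11.12, 10.98 and 11.50 in pChePS_GC, 11.34, 10.51 and 11.47 in pCP_GC, and 9.13, 9.28, 9.23 and 9.22 in NGE. Every tumour array lay above every NGE array, and pChePS_GC array 1 was the lowest tumour array. Plk1 rose 3.32-fold in pChePS_GC (log2 change 1.73, SE 0.27, adjusted p = 0.000635) and 3.71-fold in pCP_GC (log2 change 1.89, SE 0.29, adjusted p = 0.000604). Ccnb2, a B-type cyclin partner of Cdk1, read 11.24, 12.06, 11.06 and 11.94 in pChePS_GC, 11.93, 11.39 and 11.92 in pCP_GC, and 9.68, 10.07, 9.70 and 10.14 in NGE. The tumour arrays were all above NGE, and the log2 change was 1.68 in pChePS_GC (adjusted p = 0.000322) and 1.85 in pCP_GC (adjusted p = 0.000311).

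Melk, a kinase found mainly in dividing cells, read 8.13, 9.03, 8.65 and 9.15 in pChePS_GC, 9.45, 9.06 and 9.56 in pCP_GC, and 8.12, 8.17, 8.04 and 8.23 in NGE. The pChePS_GC group overlapped NGE, since its array 1 lay within the NGE range. The log2 change was 0.60 in pChePS_GC (95% interval 0.16 to 1.04, adjusted p = 0.0335), a call lost when any NGE array was left out (adjusted p = 0.0536 to 0.0819), without pChePS_GC array 2 (0.0901) or 4 (0.0781), with centred arrays (0.0862) or under quantile normalization (0.111), and 1.22 in pCP_GC (adjusted p = 0.00132). The other entry genes rose without overlap of either tumour group with NGE. Cdk1 changed by 1.27 in pChePS_GC and 1.62 in pCP_GC on the log2 scale, the phosphatase Cdc25c, which activates Cdk1, by at least 0.96 and 1.003, and the spindle pole kinase Aurka by 1.29 and 1.55. Foxm1, a transcription factor of G2 and mitosis genes, changed by 1.26 in pChePS_GC and 1.57 in pCP_GC.

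The spindle checkpoint genes rose in both tumour groups, 4 of 4 each, with medians of 1.69 in pChePS_GC and 1.95 in pCP_GC on the log2 scale. Bub1, a kinase that recruits checkpoint proteins to kinetochores, read 9.51, 10.25, 9.82 and 9.84 in pChePS_GC, 10.51, 9.89 and 10.48 in pCP_GC, and 7.49, 7.7, 7.44 and 7.79 in NGE. The lowest tumour array stood well above the highest NGE array. Bub1 rose 4.76-fold in pChePS_GC (log2 change 2.25, SE 0.18, adjusted p = 6.99e-06) and 6.45-fold in pCP_GC (log2 change 2.69, SE 0.19, adjusted p = 5.61e-06). Mad2l1, which encodes the MAD2 protein that binds Cdc20, read 10.69, 11.36, 11.07 and 11.36 in pChePS_GC, 11.47, 11.46 and 11.56 in pCP_GC, and 9.23, 9.43, 9.18 and 9.39 in NGE. The 3 pCP_GC arrays lay close together and above every pChePS_GC array. Mad2l1 rose 3.51-fold in pChePS_GC (adjusted p = 6.59e-06) and 4.56-fold in pCP_GC (adjusted p = 5.11e-06).

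Ttk, the MPS1 kinase that starts the checkpoint signal, read 7.34, 7.82, 7.57 and 8.12 in pChePS_GC, 8.74, 7.92 and 8.49 in pCP_GC, and 6.94, 7.02, 7.02 and 6.80 in NGE. All 4 NGE readings lay below the background level of 7.24, and every tumour reading lay above it. Ttk rose by at least 0.47 on the log2 scale in pChePS_GC and by at least 1.14 in pCP_GC. The measured changes, 0.77 and 1.43, had adjusted p = 0.0102 and 0.000441, and the bounds were not tested. Bub1b, which encodes the checkpoint protein BUBR1, rose 2.98-fold in pChePS_GC and 3.27-fold in pCP_GC.

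The 4 genes that control the start of anaphase changed less, with median log2 changes of 0.72 in pChePS_GC and 0.92 in pCP_GC. Of these, 3 of 4 passed in pChePS_GC and 4 of 4 in pCP_GC. Cdc20, the activator of the anaphase-promoting complex, read 9.08, 9.76, 9.36 and 10.23 in pChePS_GC, 10.07, 9.48 and 9.999 in pCP_GC, and 8.51, 8.49, 8.54 and 8.56 in NGE. The pChePS_GC arrays spread over more than a log2 unit, and all tumour arrays lay above the NGE arrays. Cdc20 rose 2.12-fold in pChePS_GC (SE 0.22 on the log2 scale, adjusted p = 0.00328) and 2.5-fold in pCP_GC (SE 0.24, adjusted p = 0.00139). Ube2c, the E2 enzyme of that complex, read 10.10, 10.41, 10.39 and 10.68 in pChePS_GC, 10.83, 10.33 and 10.71 in pCP_GC, and 9.30, 9.32, 9.30 and 9.44 in NGE. It rose 2.07-fold in pChePS_GC (adjusted p = 0.000196) and 2.43-fold in pCP_GC (adjusted p = 0.000101).

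Espl1 and Pttg1 encode separase, the protease that cuts cohesin, and securin, which holds separase back. Espl1 read 8.21, 8.73, 8.17 and 8.57 in pChePS_GC, 8.63, 8.37 and 8.52 in pCP_GC, and 8.01, 8.08, 8.23 and 8.21 in NGE. In pChePS_GC arrays 1 and 3 lay within the NGE range and arrays 2 and 4 above it. The log2 change was 0.29 in pChePS_GC (95% interval -0.003 to 0.58, adjusted p = 0.0981) and 0.38 in pCP_GC (95% interval 0.06 to 0.69, adjusted p = 0.0453). Without pChePS_GC array 3 the pChePS_GC change passed (adjusted p = 0.0479). The pCP_GC call was lost under 11 alternatives besides a stricter threshold (adjusted p = 0.0512 to 0.423). Pttg1 read 8.40, 8.47, 8.74 and 8.45 in pChePS_GC, 8.79, 8.41 and 8.84 in pCP_GC, and 8.09, 8.05, 8.15 and 8.20 in NGE. It lay above NGE on every tumour array and changed by 0.39 in pChePS_GC (adjusted p = 0.019) and 0.55 in pCP_GC (adjusted p = 0.0038), and both calls were lost under quantile normalization (adjusted p = 0.179 and 0.0703), the pChePS_GC call also with centred arrays (adjusted p = 0.162).

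**Figure D2:**
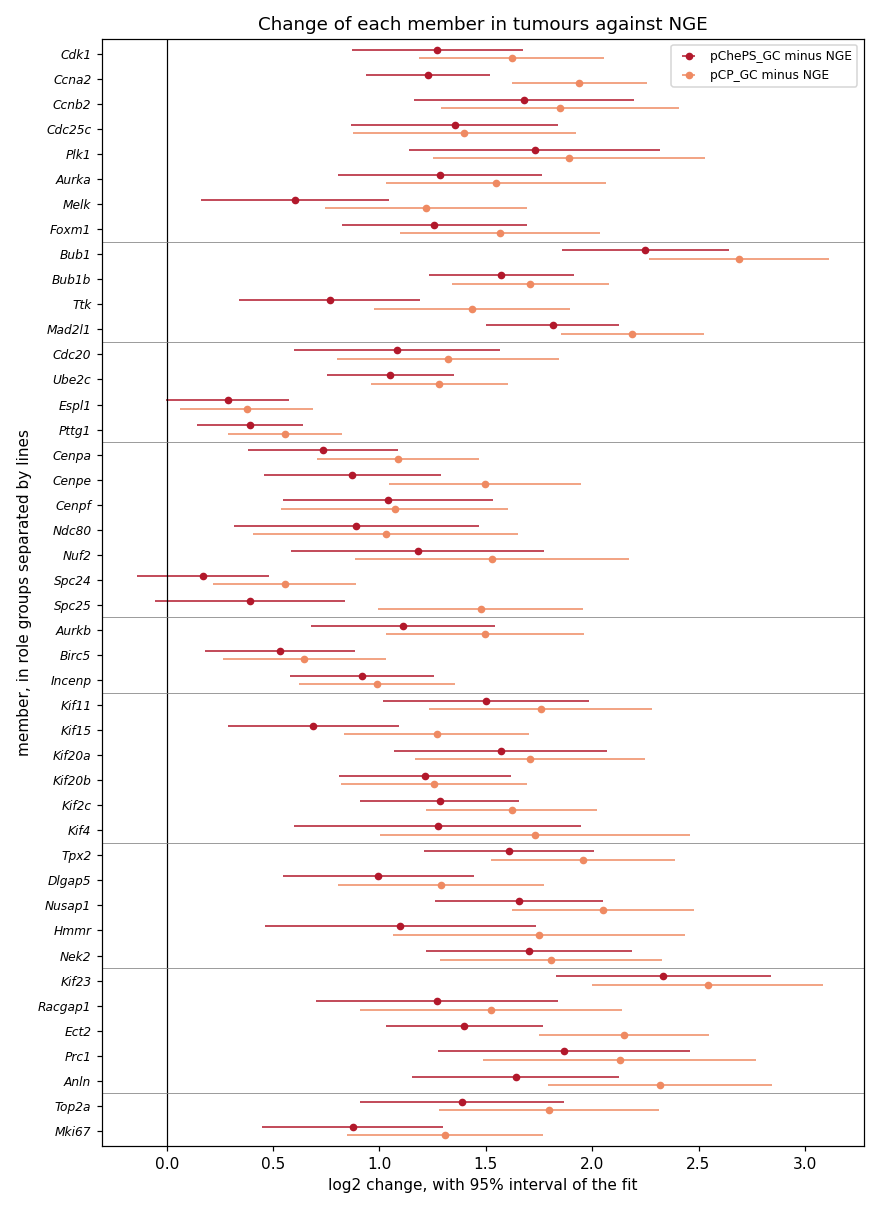
Log2 change of each of the 44 genes against NGE (points) with the 95% interval of the limma fit (lines), for pChePS_GC above pCP_GC in each row. The intervals of Espl1, Spc24 and Spc25 reach 0 in pChePS_GC, and every pCP_GC interval lies above 0. Cdc25c, Ttk, Kif20b, Kif4 and Hmmr, whose NGE means lay below the background level, are drawn at their measured values.

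At the centromere and kinetochore 5 of 7 genes rose in pChePS_GC and 7 of 7 in pCP_GC, with median log2 changes of 0.87 and 1.09. Nuf2, a subunit of the Ndc80 complex, read 8.21, 9.56, 8.14 and 8.75 in pChePS_GC, 9.25, 8.75 and 9.05 in pCP_GC, and 7.29, 7.64, 7.61 and 7.42 in NGE. Array 2 of pChePS_GC stood above the other arrays of its group, and all tumour arrays lay above NGE. Nuf2 rose 2.26-fold in pChePS_GC (log2 change 1.18, SE 0.27, adjusted p = 0.00629) and 2.89-fold in pCP_GC (log2 change 1.53, SE 0.29, adjusted p = 0.00188). Cenpe, a kinetochore kinesin that moves chromosomes to the spindle equator, read 8.56, 8.998, 8.30 and 9.02 in pChePS_GC, 9.63, 8.90 and 9.51 in pCP_GC, and 7.81, 7.85, 7.78 and 7.95 in NGE. It changed by 0.87 in pChePS_GC (adjusted p = 0.00475) and 1.5 in pCP_GC (adjusted p = 0.000307).

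Of the 4 subunits of the Ndc80 complex, Ndc80 and Nuf2 passed in pChePS_GC and Spc24 and Spc25 did not, and all 4 passed in pCP_GC; differences between subunits were not tested. Spc25 read 8.52, 9.13, 8.54 and 9.19 in pChePS_GC, 10.17, 9.46 and 10.16 in pCP_GC, and 8.53, 8.58, 8.22 and 8.48 in NGE. In pChePS_GC arrays 1 and 3 lay within the NGE range, while the lowest pCP_GC array lay above all other groups' arrays. The log2 change was 0.39 in pChePS_GC (95% interval -0.05 to 0.84, adjusted p = 0.136) and 1.48 in pCP_GC (95% interval 0.99 to 1.96, adjusted p = 0.000489). In pChePS_GC, Spc25 passed with array weights (adjusted p = 0.0456). It also passed without pChePS_GC array 1 and pCP_GC array 2 (adjusted p = 0.0355), an omission chosen after seeing the data. Spc24, its partner at the inner end of the complex, read 7.79, 8.07, 7.72 and 8.32 in pChePS_GC, 8.59, 8.19 and 8.30 in pCP_GC, and 7.87, 7.7, 7.72 and 7.94 in NGE. Its log2 change was 0.17 in pChePS_GC (95% interval -0.14 to 0.48, adjusted p = 0.342), with the sign turned (-0.0058) when each array was centred on its median, and 0.55 in pCP_GC (adjusted p = 0.0114), a call lost without pCP_GC array 1 (adjusted p = 0.0522) and with centred arrays (log2 change 0.34, adjusted p = 0.0805). The microtubule-binding subunit Ndc80 changed by 0.89 in pChePS_GC (adjusted p = 0.0204) and 1.03 in pCP_GC (adjusted p = 0.0114). These calls were lost without NGE array 1 (adjusted p = 0.0508 in pChePS_GC) and without pCP_GC array 1 (adjusted p = 0.0517 in pCP_GC). Cenpa, the centromeric histone, rose 1.67-fold in pChePS_GC and 2.12-fold in pCP_GC, and the kinetochore corona protein Cenpf 2.06-fold and 2.1-fold.

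The chromosomal passenger complex corrects faulty attachments with the kinase Aurkb, held in place by Incenp and Birc5 (survivin). All 3 passed in both tumour groups, with medians of 0.92 in pChePS_GC and 0.99 in pCP_GC on the log2 scale. Aurkb read 10.06, 10.95, 10.43 and 10.67 in pChePS_GC, 11.01, 10.51 and 11.21 in pCP_GC, and 9.27, 9.55, 9.31 and 9.54 in NGE. Its lowest tumour array lay above its highest NGE array, and it rose 2.16-fold in pChePS_GC (adjusted p = 0.00143) and 2.82-fold in pCP_GC (adjusted p = 0.000372). Incenp, the scaffold, read 8.85, 9.31, 8.85 and 9.32 in pChePS_GC, 9.34, 8.91 and 9.21 in pCP_GC, and 7.94, 8.41, 8.12 and 8.18 in NGE. It changed by 0.92 in pChePS_GC (adjusted p = 0.00102) and 0.99 in pCP_GC (adjusted p = 0.00099). Birc5 read 8.49, 8.78, 8.59 and 9.12 in pChePS_GC, 8.97, 8.59 and 9.02 in pCP_GC, and 7.90, 8.28, 8.34 and 8.32 in NGE. NGE array 1 lay apart from the other NGE arrays, and the changes of 0.53 in pChePS_GC (adjusted p = 0.023) and 0.65 in pCP_GC (adjusted p = 0.0102) did not pass under quantile normalization (adjusted p = 0.159 and 0.13) or with centred arrays (adjusted p = 0.0886 and 0.0585). In pChePS_GC the Birc5 call was also lost without NGE array 1 (adjusted p = 0.0668), pChePS_GC array 2 (0.0526) or pChePS_GC array 4 (0.0502).

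**Figure D3:**
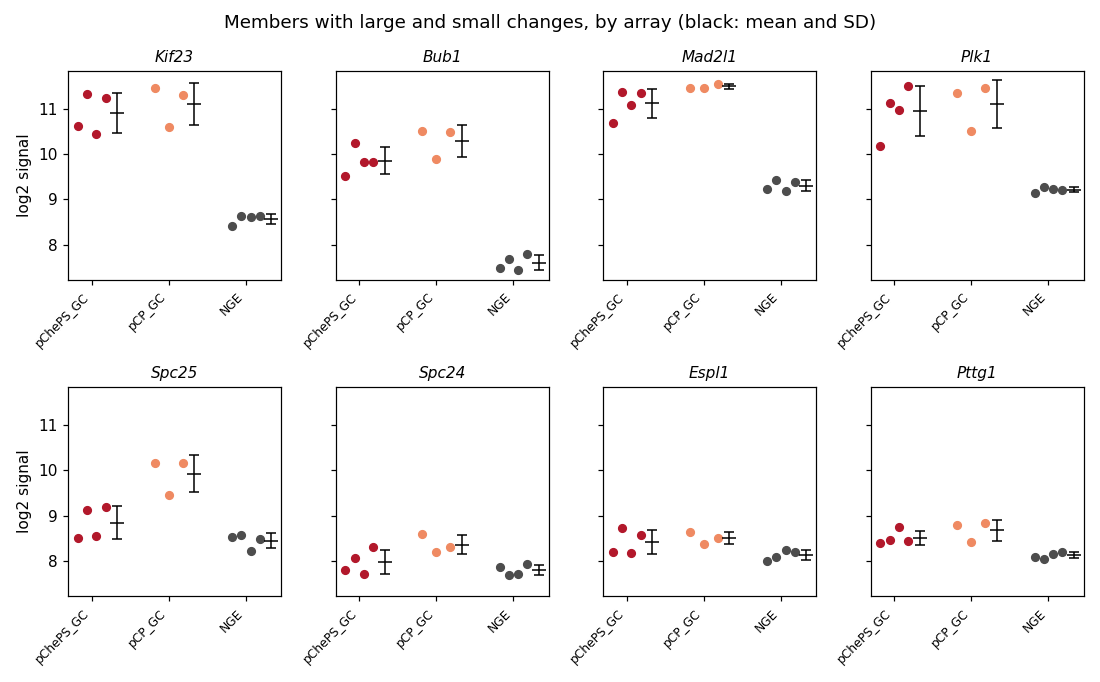
Log2 signal on each array for genes with large changes (Kif23, Bub1, Mad2l1, Plk1) and small changes or no call in pChePS_GC (Spc25, Spc24, Espl1, Pttg1), with the mean and SD of each group in black and the same axis in all panels. Tumour and NGE arrays are far apart in the upper row, and in the lower row pCP_GC stands clear of NGE for Spc25 while pChePS_GC overlaps it.

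The 6 genes grouped here as kinesins, without Cenpe and Kif23 of other role groups, all rose in both tumour groups. Their median log2 changes were 1.28 in pChePS_GC and 1.66 in pCP_GC (1.20 and 1.56 with Kif4 and Kif20b at their bounds). Kif20a, a kinesin of the central spindle, read 9.57, 10.77, 9.79 and 10.10 in pChePS_GC, 10.49, 9.90 and 10.19 in pCP_GC, and 8.59, 8.58, 8.33 and 8.45 in NGE. It was highest on pChePS_GC array 2 and rose 2.97-fold in pChePS_GC (adjusted p = 0.000408) and 3.26-fold in pCP_GC (adjusted p = 0.000411). Kif11, the motor that pushes spindle poles apart, read 9.97, 10.71, 9.89 and 10.59 in pChePS_GC, 10.80, 10.09 and 10.75 in pCP_GC, and 8.70, 9.0, 8.58 and 8.88 in NGE. It rose 2.83-fold in pChePS_GC (SE 0.22 on the log2 scale, adjusted p = 0.000437) and 3.38-fold in pCP_GC (SE 0.24, adjusted p = 0.000282). Kif15, which can also keep the spindle bipolar, read 8.20, 8.70, 7.90 and 8.26 in pChePS_GC, 9.20, 8.45 and 8.88 in pCP_GC, and 7.43, 7.55, 7.62 and 7.7 in NGE. Both groups of tumours stood above NGE, and its log2 change was 0.69 in pChePS_GC (adjusted p = 0.013) and 1.27 in pCP_GC (adjusted p = 0.000653). The microtubule depolymerase Kif2c rose 2.43-fold in pChePS_GC and 3.08-fold in pCP_GC, the chromokinesin Kif4 at least 2.05-fold and 2.81-fold, and Kif20b at least 2.17-fold and 2.23-fold.

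Spindle assembly factors and microtubule-binding proteins rose in 5 of 5 cases in each tumour group, with medians of 1.61 in pChePS_GC and 1.81 in pCP_GC on the log2 scale. Nusap1, which bundles microtubules near chromosomes, read 9.98, 10.79, 10.25 and 10.73 in pChePS_GC, 10.98, 10.52 and 10.998 in pCP_GC, and 8.74, 8.86, 8.71 and 8.82 in NGE. The tumour arrays lay above all NGE arrays, which differed little among themselves. Nusap1 rose 3.15-fold in pChePS_GC (log2 change 1.66, SE 0.18, adjusted p = 5.85e-05) and 4.14-fold in pCP_GC (log2 change 2.05, SE 0.19, adjusted p = 3.05e-05). Tpx2, an activator of Aurka on the spindle, read 9.33, 9.84, 9.45 and 9.89 in pChePS_GC, 10.22, 9.55 and 10.16 in pCP_GC, and 7.85, 8.20, 7.84 and 8.18 in NGE. It rose 3.05-fold in pChePS_GC (adjusted p = 7.75e-05) and 3.88-fold in pCP_GC (adjusted p = 4.21e-05). Dlgap5, a kinetochore fibre protein also called HURP, had the smallest changes of the 5 and read 8.55, 8.85, 8.46 and 9.11 in pChePS_GC, 9.31, 8.44 and 9.35 in pCP_GC, and 7.72, 7.67, 7.81 and 7.78 in NGE. It changed by 0.995 in pChePS_GC and 1.29 in pCP_GC. The centrosomal kinase Nek2 rose 3.25-fold in pChePS_GC and 3.5-fold in pCP_GC, and the hyaluronan-mediated motility receptor Hmmr, which also binds the spindle, at least 2.01-fold and 3.16-fold.

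Genes of the central spindle and cytokinesis had the largest group median in pCP_GC, 2.15 on the log2 scale, and 1.64 in pChePS_GC, and 5 of 5 rose in each. Kif23, the kinesin of centralspindlin, read 10.62, 11.32, 10.45 and 11.24 in pChePS_GC, 11.46, 10.59 and 11.29 in pCP_GC, and 8.41, 8.64, 8.61 and 8.63 in NGE. Its tumour arrays stood far above the highest NGE array, which was close to the other NGE arrays except array 1. Kif23 rose 5.05-fold in pChePS_GC (log2 change 2.34, SE 0.23, adjusted p = 3.07e-05) and 5.83-fold in pCP_GC (log2 change 2.54, SE 0.25, adjusted p = 3.46e-05). Racgap1, the other subunit of centralspindlin, read 9.12, 10.50, 9.94 and 10.44 in pChePS_GC, 10.42, 10.02 and 10.32 in pCP_GC, and 8.54, 8.88, 8.71 and 8.80 in NGE. It was low on pChePS_GC array 1 and rose 2.41-fold in pChePS_GC (adjusted p = 0.00332) and 2.87-fold in pCP_GC (adjusted p = 0.00154). Prc1, which bundles the antiparallel microtubules of the central spindle, read 9.04, 10.001, 9.60 and 10.10 in pChePS_GC, 10.32, 9.37 and 10.14 in pCP_GC, and 7.53, 8.07, 7.58 and 8.09 in NGE. It rose 3.65-fold in pChePS_GC (adjusted p = 0.000395) and 4.38-fold in pCP_GC (adjusted p = 0.000304). The cleavage furrow scaffold Anln rose 3.12-fold in pChePS_GC and 4.99-fold in pCP_GC, and Ect2, the exchange factor that activates RhoA there, 2.64-fold and 4.43-fold.

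Top2a, the topoisomerase that untangles sister chromatids, and Mki67, the Ki-67 protein that coats mitotic chromosomes, rose in both tumour groups. Top2a read 10.22, 11.01, 10.35 and 10.79 in pChePS_GC, 11.13, 10.50 and 11.37 in pCP_GC, and 8.90, 9.37, 9.23 and 9.31 in NGE. It rose 2.62-fold in pChePS_GC (adjusted p = 0.00068) and 3.47-fold in pCP_GC (adjusted p = 0.000239). The other Top2a probe set was dim, at 4.13 to 6.03 over all arrays, and its groups overlapped. Mki67 read 10.50, 11.34, 10.75 and 11.24 in pChePS_GC, 11.56, 11.08 and 11.53 in pCP_GC, and 9.82, 10.11, 10.18 and 10.22 in NGE. Neither tumour group overlapped NGE, and the change was 0.87 in pChePS_GC (adjusted p = 0.00518) and 1.31 in pCP_GC (adjusted p = 0.000756) on the log2 scale.

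Between the tumour groups no gene of the list passed in either direction. Over all genes 0.115% passed as higher in pChePS_GC and 0.251% as lower. All 44 differences were below 0, that is lower in pChePS_GC than in pCP_GC, as were 43 when each array was centred on its median (Cenpf turned) and 42 under quantile normalization (Cenpf and Incenp turned). Over all genes 42.2% had that sign in the values as deposited. The 44 genes went up and down together by array, so their signs are not independent observations. Their medians per array, relative to the NGE mean, overlapped between the groups. pCP_GC array 2 was at 1.14, below pChePS_GC arrays 2 and 4 at 1.58 and 1.45. The median difference of the 44 was -0.32 on the log2 scale and the median over all genes 0.04. It lay at -0.19 without pChePS_GC array 1 and at -0.48 without pCP_GC array 2, so the size rests in part on single arrays. At an unadjusted p under 0.05, 11 of the 44 were lower in pChePS_GC, against 6.81% of all genes. The groups did not overlap for Ccna2, Mad2l1, Spc25 and Ect2, 4 of 44, where 4.40% of all genes were lower in pChePS_GC without overlap.

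Ccna2, Spc25 and Ect2 had the smallest adjusted p-values in this comparison, and Ccna2 and Ect2 are described here because of these values. Ccna2, which encodes cyclin A2, read 11.002, 11.52, 10.94 and 11.28 in pChePS_GC, 11.90, 11.76 and 12.04 in pCP_GC, and 9.93, 9.99, 9.81 and 10.10 in NGE. The difference between pChePS_GC and pCP_GC was -0.71 (95% interval -1.03 to -0.40, adjusted p = 0.0711). Spc25 differed by -1.08 (95% interval -1.57 to -0.60, adjusted p = 0.0711) and Ect2 by -0.75 (95% interval -1.15 to -0.35, adjusted p = 0.112). Ect2 read 10.20, 10.78, 9.92 and 10.40 in pChePS_GC, 11.02, 10.99 and 11.21 in pCP_GC, and 8.82, 9.09, 8.71 and 9.08 in NGE. Spc25 passed without pCP_GC array 2 (adjusted p = 0.0198) and Ccna2 and Ect2 without pChePS_GC array 2 (adjusted p = 0.0255 and 0.0398). For Cenpf and Kif20b the difference was near 0, at -0.03 (95% interval -0.56 to 0.50) and -0.04 (95% interval -0.48 to 0.40), and these intervals hold differences of either sign.

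**Figure D4:**
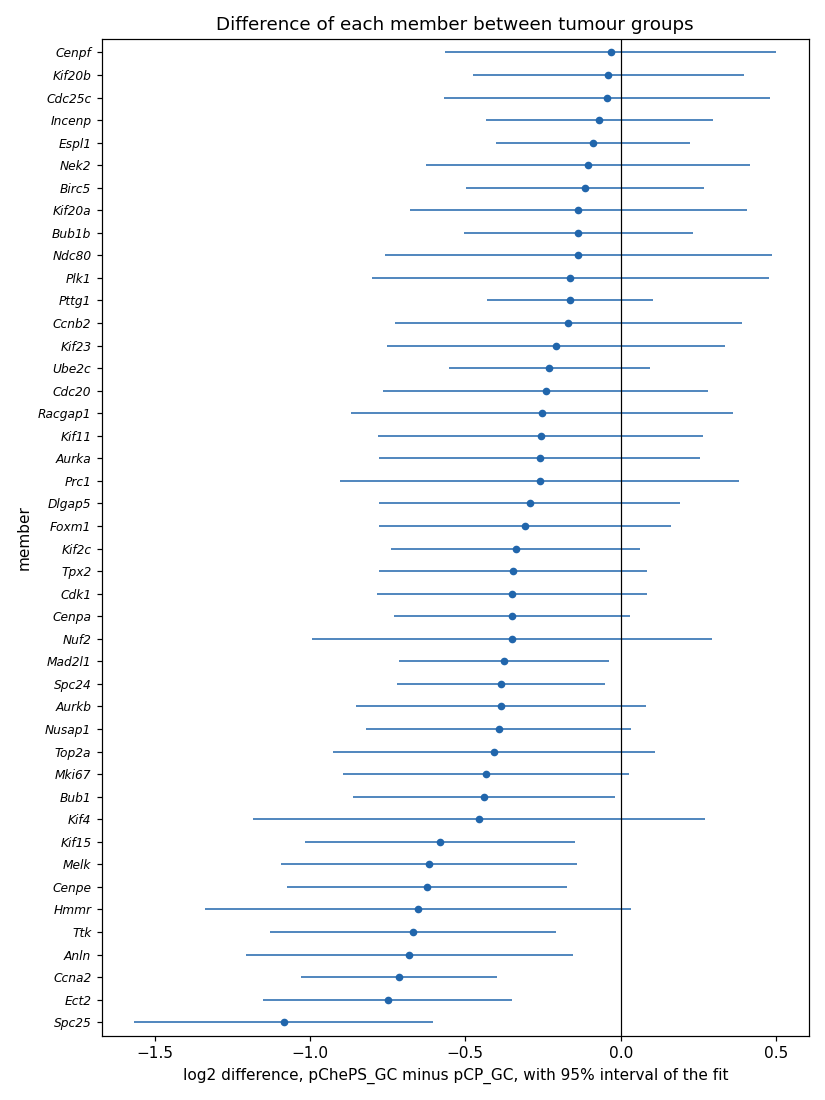
Log2 difference of each of the 44 genes, pChePS_GC minus pCP_GC (points), with the 95% interval of the limma fit (lines), ordered by the difference. All 44 points lie below 0 (43 with centred arrays, where Cenpf turned, and 42 under quantile normalization, where Cenpf and Incenp turned), from -0.03 for Cenpf to -1.08 for Spc25, and most intervals cross 0.

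Within the tumour groups the genes were spread more widely than most genes. The median SD over the 44 was 0.387 in pChePS_GC, 0.301 in pCP_GC and 0.152 in NGE, while over all genes it was 0.184, 0.155 and 0.136. The genes went up and down together by array. In pCP_GC, array 2 was the lowest of the 3 for 42 of 44 genes (95.5%), where it was the lowest for 43.5% of all genes. In pChePS_GC, array 1 was the lowest of the 4 for 28 genes (63.6%, against 31.9% of all genes), and arrays 2 and 4 were the highest for 24 and 19. The median over the 44 genes, relative to the NGE mean, was 0.82, 1.58, 0.99 and 1.45 on pChePS_GC arrays 1 to 4 and 1.77, 1.14 and 1.67 on pCP_GC arrays 1 to 3. It was -0.12, 0.09, -0.07 and 0.10 on NGE arrays 1 to 4, so the lowest tumour array still stood above the highest NGE array.

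Markers of other cell types differed between these arrays too. The mean fibroblast marker level was 11.06, 12.06 and 11.24 on pCP_GC arrays 1 to 3 and the mean macrophage marker level 10.29, 11.51 and 10.67, so array 2, lowest for the mitotic genes, was highest for both. Its gastric epithelial marker level was also the highest of the 3 (11.77, 12.48 and 11.26). On pChePS_GC arrays 1 to 4 the fibroblast level was 10.93, 11.19, 11.99 and 11.57, the macrophage level 10.74, 11.30, 10.77 and 11.33, and the gastric epithelial level 9.89, 11.72, 10.78 and 10.92. There array 1, lowest for most mitotic genes, was lowest for all of these, and arrays 2 and 4, highest for most mitotic genes, were the highest for the macrophage markers. The T cell level there was 6.89, 7.55, 7.24 and 7.76, also highest on arrays 2 and 4. The B and plasma cell level was 7.07, 9.62, 8.17 and 8.03, and the endothelial and smooth muscle levels were highest on array 3 (10.86 and 12.49). In pCP_GC the T cell and the B and plasma cell levels were highest on array 2 (7.54 and 8.65). The part of these marker levels is not known here. The part of the cell types in the order of the arrays was not tested. Without pChePS_GC array 1 and pCP_GC array 2, 42 of the 44 genes passed as higher in pChePS_GC and 44 in pCP_GC against NGE. That omission was chosen after seeing the data, and it takes out the array with the lowest mitotic median of each tumour group.

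The other genes of mitosis, taken from lists by complex, had lower medians than the 44 genes in both tumour groups, and a few members fell. Of 15 inner kinetochore (CCAN) genes, 11 rose in pChePS_GC and 13 in pCP_GC, with medians of 0.67 and 0.98 and with Cenpn at 1.08 and 1.86; the NGE means of 7 of the 15 lay below the background level, and the medians hold them at their measured values. Of 13 outer kinetochore partners, 8 rose in pChePS_GC and 9 in pCP_GC, with medians of 0.57 and 1.12 (4 of the 13 were below the background level in NGE), and Knl1, which anchors Bub1 at the kinetochore, changed by 1.69 and 2.21. Of 15 other regulators 9 rose and 2 fell in pChePS_GC, and 10 rose and 2 fell in pCP_GC. Among them Mastl, the Greatwall kinase that protects Cdk1 substrates from dephosphorylation, read 9.79, 10.17, 9.87 and 9.71 in pChePS_GC, 10.61, 9.41 and 10.26 in pCP_GC, and 7.29, 7.75, 7.46 and 7.23 in NGE. Mastl rose by 2.45 in pChePS_GC (adjusted p = 2.16e-05) and 2.66 in pCP_GC (adjusted p = 2.61e-05) on the log2 scale. Wee1, a kinase that inhibits Cdk1, read 9.14, 9.87, 10.12 and 9.98 in pChePS_GC, 10.24, 9.73 and 10.24 in pCP_GC, and 10.93, 11.05, 10.92 and 10.73 in NGE. Wee1 fell by 1.13 in pChePS_GC (adjusted p = 0.00161) and by 0.84 in pCP_GC (adjusted p = 0.00901), so it moved opposite to the kinases and cyclins of mitotic entry. The other gene of this list that fell in pChePS_GC was Cdc25a, a relative of Cdc25c (log2 change -0.44, adjusted p = 0.0481). Pkmyt1 did not pass there (log2 change -0.24, adjusted p = 0.121).

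Of the 14 core subunits of the anaphase-promoting complex, 8 rose and 1 fell in pChePS_GC and 9 rose and 1 fell in pCP_GC, with medians of 0.42 and 0.40. Anapc4 had the largest changes (0.98 and 1.01), and Anapc13 fell by 0.86 in pChePS_GC and by 0.87 in pCP_GC. Condensin and cohesin genes rose in 9 of 14 cases in pChePS_GC and 10 of 14 in pCP_GC. The condensin subunits Ncaph (1.80 and 2.10) and Ncapg (1.22 and 1.87) rose, and the cohesin subunit Rad21 (-0.12 and -0.16) did not pass. The list did not split by complex. The cohesin subunits Smc3 and Stag1 lay above every NGE array on all tumour arrays. In pChePS_GC the condensin subunit Ncapd3 overlapped NGE, as did the cohesin subunits Smc1a and Stag2. Of 5 further mitotic kinesins 4 rose in pChePS_GC and 5 in pCP_GC, with medians of 0.90 and 1.25. Of 14 genes of centriole duplication and gamma-tubulin, 9 rose in pChePS_GC, and 11 rose and 1 fell in pCP_GC. Stil, a centriole assembly factor whose NGE readings lay below the background level, rose by at least 0.99 and 1.34 there. Plk4, the kinase that starts centriole duplication, was the gene of this list that passed between the tumour groups, lower by 0.84 on the log2 scale in pChePS_GC (log2 difference -0.84, adjusted p = 0.018). Of the CCAN genes Cenpp did so too (adjusted p = 0.0489), but all its pChePS_GC readings and 1 of its pCP_GC readings lay below their group's background level, so no size is given.

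A list of 16 genes was built around the DREAM and MuvB complexes, which regulate cell cycle genes. E2f1, E2f2, E2f3 and Rb1 are on it too, though they are not subunits of these complexes. Of the 16, 8 rose and 1 fell in pChePS_GC and 9 rose and 1 fell in pCP_GC, with medians of 0.32 and 0.50. Lin9, a core MuvB subunit whose NGE readings lay below the background level, rose by at least 1.18 in pChePS_GC and 1.23 in pCP_GC, and E2f3 changed by 0.81 and 1.46. DNA replication genes, which act in S phase, rose in 18 of 24 cases with 1 fall in pChePS_GC and in 23 of 24 in pCP_GC. Their medians of 0.73 and 1.03 were below those of the 44 mitotic genes (1.24 and 1.54), and Rfc4, a subunit of the clamp loader, was highest at 1.19 and 1.84. These lists share the 4 NGE arrays and the fit with the mitotic genes, and the differences between lists were not tested.

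**Figure D5:**
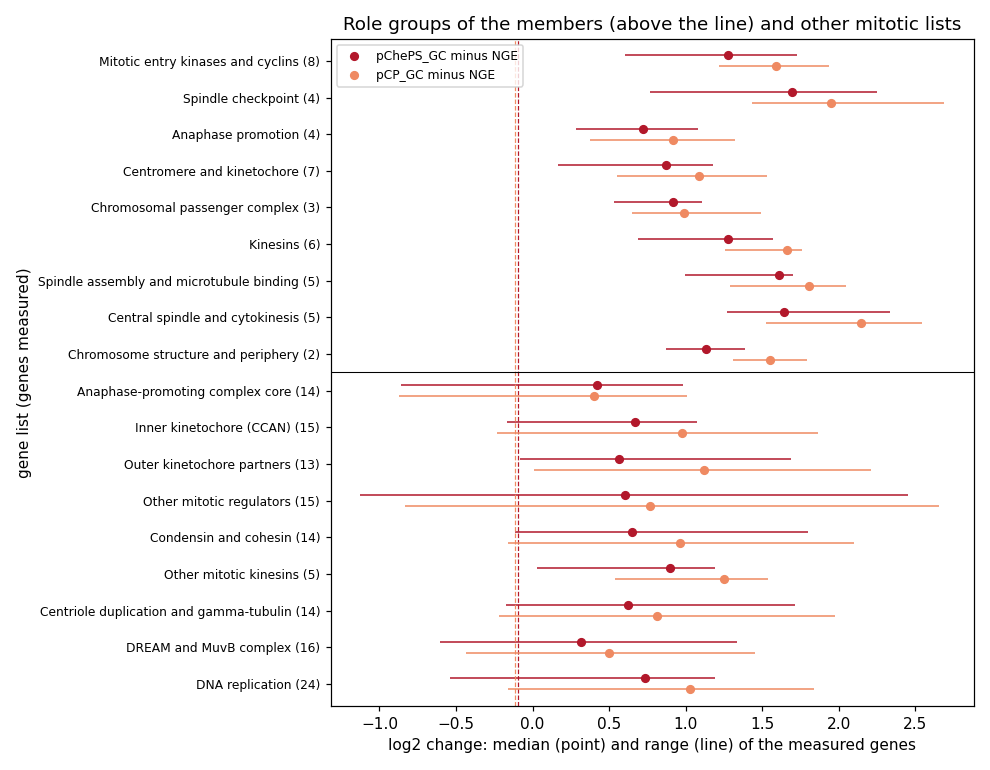
Median log2 change against NGE (points) and range over the measured genes (lines) for the role groups of the 44 genes, above the horizontal line, and for other mitotic lists and DNA replication below it, with pChePS_GC above pCP_GC in each row. Dashed lines mark the medians over all genes, -0.10 for pChePS_GC and -0.12 for pCP_GC.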

How the data were processed

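Per the labels' protocols, total RNA was biotin-labelled for Affymetrix arrays. The deposited log2 values are 1 normalized signal per probe set and sample, made by the authors; the unit was inferred from their range (2.88 to 14.56). The submitters' processing notes name Affymetrix Expression Console. Which version, algorithm and genome build were used is not given in the sources used here, and their part in the values was not tested.

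Of 35556 probe sets, 21789 named 1 gene symbol in the platform annotation, 1621 several and 12146 none. The 21698 symbols found in RefSeq by gene number were unchanged. Each gene took its brightest probe set, which gave 19938 genes, 999 of them with several. Dim genes were kept, and detection calls were not used.

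With limma 3.58.1 (lmFit and eBayes, R 4.3.3), group means were fitted over the 11 arrays together, and all p-values are two-sided. The members and lists were chosen with earlier results of these data known. Per role group, values by array are given for the genes with the 2 largest mean changes and the smallest, and for genes that did not pass against NGE. From each other list up to 3 of the largest changes are named. Pttg1, Ndc80, Ccna2, Ect2, Wee1, Cdc25a, Pkmyt1, Anapc13, Rad21, Smc1a, Smc3, Stag1, Stag2, Ncapd3, Plk4 and Cenpp were singled out after their values were seen.

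The alternatives were an intensity trend in the variance prior, a fit of only the 2 groups compared, centred arrays, quantile normalization, leaving out the dimmest 25% or 50% of genes, means of probe sets, array weights, a replicate block, an adjusted p under 0.01, and omission of single arrays. The replicate numbers do not pair the samples in the labels. Promoter windows came from RefSeq (GRCm38.p6).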

Additional observations from a re-analysis of the deposited data

Results flagged for a closer look

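In the groups of 4 arrays, 88 sets of readings (44 genes in pChePS_GC and in NGE) were examined for an array far from the rest, and 3 were found. Chance gives about 1 in 20. Kif23 read 8.41 on NGE array 1, against 8.61 to 8.64 on the other NGE arrays. Birc5 read 7.90 on NGE array 1, against 8.28 to 8.34 on the others. Ube2c read 9.44 on NGE array 4, against 9.30 to 9.32 on the others. Without NGE array 1 the Birc5 change in pChePS_GC against NGE was 0.43 on the log2 scale and did not pass (adjusted p = 0.0668).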

How the results depend on the processing

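The number of mitotic genes that passed as higher in pChePS_GC against NGE lay between 34 (adjusted p under 0.01) and 42 over all alternatives and in pCP_GC against NGE between 36 (of the 37 genes left without the dimmest 50% of genes) and 44, with 0 lower throughout. Without each array in turn these counts ranged from 38 to 42 and from 41 to 44, and the medians from 1.10 to 1.36 and from 1.44 to 1.70. With centred arrays or quantile normalization 38 and 41 passed. Centring on the array medians moved the median of all genes to -0.27 in pChePS_GC and -0.33 in pCP_GC and the medians of the mitotic genes to 1.07 and 1.32; it subtracts 1 value per array from every gene. The change of Spc24 in pChePS_GC against NGE then turned to -0.0058 (adjusted p = 0.975). Between the tumour groups, where 0 genes passed as lower, 1 did under quantile normalization (Ccna2), 1 with array weights (Spc25) and 1 without pChePS_GC array 1 and pCP_GC array 2 (Spc25), an alternative chosen after seeing the data. Without each array in turn that count ranged from 0 to 2, and the median from -0.48 to -0.19. The cause of these changes was not tested. With the replicate block, 41 genes passed as higher in pChePS_GC, 43 in pCP_GC (Espl1 did not, adjusted p = 0.0631) and 0 between the tumour groups. Deviations of samples with the same replicate number correlated at -0.155 to 0.156, so the numbers were not taken as pairs. The number of arrays limits the precision of all values.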

Other observations

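The 5 mitotic genes with E2F letters in their promoter window had a median log2 change of 1.10 in pChePS_GC and 1.62 in pCP_GC against NGE, and the 30 without had medians of 1.27 and 1.54. The 24 genes with a CCAAT box had medians of 1.27 and 1.67, and the 11 without had medians of 1.18 and 1.27. These values were not tested.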
